A study of Mus musculus with 25 samples.

Results

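The genes described are 44 protein-coding genes of lipid metabolism and adipocyte function, out of 35880 genes in the count matrix. They were taken by symbol, from lipid uptake through fatty acid and triglyceride synthesis, the lipid droplet and lipolysis to secreted adipokines and thermogenesis. The rule used no measured value, but the members were chosen with earlier results of these data known. The study had already named Aoc3, Adipoq, Fabp4, Lpl and Plin1 among the adipogenesis markers of the E16.5 fat pad precursor. RNA-Seq was done on mesenchyme of C57Bl/6JOlaHsd mouse embryos, in 5 tissues with 5 pools each. The tissues were the E16.5 fat pad precursor (E16.5 FP, FP for short), the E16.5 mammary mesenchyme around the sprout (E16.5 MM), the E13.5 mammary mesenchyme around the quiescent bud (E13.5 MM), ventral skin mesenchyme of E13.5 taken away from the gland (VM) and mesenchyme of the submandibular salivary gland at E13.5 (SM). No pool carried a mutation or a treatment. The study describes removal of the epithelium for the mammary and salivary mesenchymes, but for FP and VM only dissection and collection. Every pool had been through enzyme digestion. It held tissue of 2 to 3 embryos of 1 litter, and since the 5 pools of a tissue came from 3 litters, some shared a litter. The p-values measure the spread between such pools. The E16.5 pools were labelled female and the E13.5 pools carried no sex, so stage and sex cannot be told apart.

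Adipocytes take up fatty acids that lipoprotein lipase frees from circulating triglyceride, or make them from citrate, and join them to glycerol 3-phosphate as triglyceride. The triglyceride is kept in lipid droplets coated with perilipins, is released again by a chain of lipases, and full adipocytes secrete hormones such as adiponectin and leptin. In the mouse mammary gland the fat pad precursor gives rise to the adipose stroma into which the ducts grow, whereas the mesenchyme that lines the bud is fibroblastic. De novo fatty acid synthesis is not particular to fat, since growing cells of many kinds use it to build membranes.

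Libraries held 20678150 to 34448304 counts, with a median of 26370369, and no member was at 0 in all of them. Values are normalized counts, that is counts scaled to a common library size. A member was called where its adjusted p (edgeR's quasi-likelihood test, Benjamini-Hochberg over 17657 genes) was under 0.05, its log2 fold change was at least 0.58 in size and its mean was above 50 in the higher tissue. Of the 44 members 41 passed the expression filter and were tested, and Elovl3, Cfd and Ucp1 did not pass.

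The first question was which steps of lipid handling set the fat pad precursor apart from the mammary mesenchyme of the same day. In FP against E16.5 MM 26 of the 41 members were called higher and 1 was called lower, where 6.78% of all tested genes were called higher and 7.34% lower. The median log2 fold change of the members was 1.17, beside 0.003 over all tested genes. The higher calls took in members of every step, but in unequal measure. Uptake had 6 of 8, triglyceride synthesis 5 of 7, the droplet coat 4 of 5, lipolysis 3 of 3, adipokines 2 of the 3 tested and the group of other adipocyte proteins 4 of 4, whereas fatty acid synthesis had 1 of the 9 tested. In bulk tissue more cells of a type and more RNA per cell cannot be told apart.

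**Figure D1:**
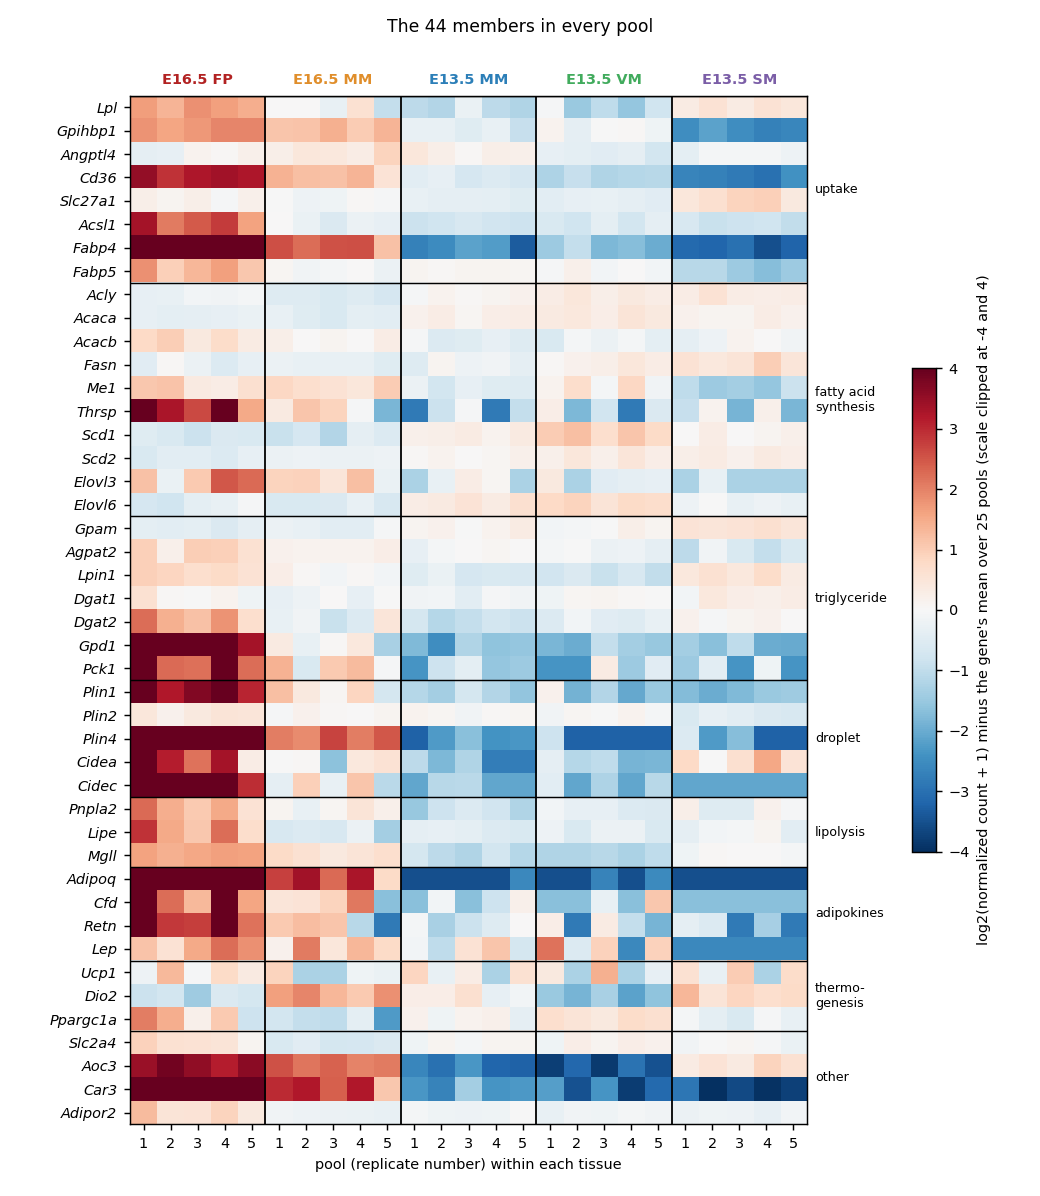
Normalized counts of the 44 members (rows, by step) in the 25 pools (columns, replicates 1 to 5 of each tissue), drawn as log2(normalized count + 1) minus the gene's mean over all pools and clipped at -4 and 4. Red cells fill the FP columns for droplet coat, adipokine and most uptake genes, while among the fatty acid synthesis genes Acly, Acaca, Fasn, Scd1, Scd2 and Elovl6 have their highest means at E13.5 and Acacb, Me1, Thrsp and Elovl3 have theirs in FP.

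Most genes of fatty acid uptake and binding were higher in the fat pad precursor. Fabp4 (chr3:10204088-10208576, mm10), which binds fatty acids in the cytosol, had 23370, 10970, 15850, 22150 and 15670 normalized counts in FP replicates 1 to 5, against 2923, 2298, 2844, 2870 and 1081 in E16.5 MM. The ranges did not overlap, and Fabp4 was 7.33-fold higher in FP (log2 fold change 2.87 ± 0.258 SE, adjusted p = 8.92e-09). Acsl1, the acyl-CoA synthetase that activates long-chain fatty acids (chr8:46471037-46536051), had 6761, 2850, 3684, 4699 and 2044 in FP, against 682.7, 562.5, 455.8, 578.4 and 543.2 in E16.5 MM, which was 7.1-fold higher (2.83 ± 0.21, adjusted p = 2.08e-10). In both genes replicate 1 was the highest fat pad pool. The SD between pools was 5118 in FP and 781.1 in E16.5 MM for Fabp4, and 1828 in FP and 81.32 in E16.5 MM for Acsl1. Relative to the mean, the spread in FP was wider for Acsl1 but not for Fabp4. Cd36, a fatty acid carrier of the cell surface, averaged 16540 ± 2460 in FP and 3868 ± 804.9 in E16.5 MM (SD, n = 5 each). Lpl, lipoprotein lipase, averaged 10890 ± 1383 in FP and 3537 ± 1332 in E16.5 MM, and Fabp5 averaged 9664 ± 2552 in FP and 3486 ± 314.6 in E16.5 MM. Each of these 3 genes rose, Cd36 4.28-fold, Lpl 3.08-fold and Fabp5 2.77-fold, with no overlap of pools. Gpihbp1, which anchors lipoprotein lipase on capillary endothelium, was 1.52-fold higher (0.61 ± 0.119, adjusted p = 0.000252), and it lost the call without FP replicate 4 (0.56) or 5 (0.56) or without E16.5 MM replicate 2 (0.57) or 4 (0.54).

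Angptl4, a secreted inhibitor of lipoprotein lipase (chr17:33773750-33781830), ran the other way. It had 1437, 1494, 2033, 1927 and 2155 normalized counts in FP, against 2184, 2534, 2475, 2276 and 3413 in E16.5 MM. All 5 fat pad pools lay below all 5 mammary mesenchyme pools, but the log2 fold change of -0.51 ± 0.12 (adjusted p = 0.00153) was under the size needed for a call. Slc27a1, a fatty acid transport protein, averaged 510.6 ± 42.78 in FP and 438 ± 31.45 in E16.5 MM, with overlapping pools and an adjusted p of 0.0746.

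Of the 9 tested members of fatty acid synthesis only 1 was called between the E16.5 tissues. Fasn, fatty acid synthase (chr11:120805846-120824547), had 4299, 6095, 4994, 4076 and 4747 normalized counts in FP, against 4977, 4839, 4785, 4806 and 4190 in E16.5 MM (log2 fold change 0.04 ± 0.118, adjusted p = 0.866). The fat pad pools lay on both sides of the mammary mesenchyme pools. Acaca, the carboxylase that commits acetyl-CoA to fatty acids, averaged 3748 ± 111.3 in FP and 3470 ± 277.7 in E16.5 MM (0.11 ± 0.0621, adjusted p = 0.183). Acly, which makes cytosolic acetyl-CoA from citrate, averaged 5350 ± 420 in FP and 4107 ± 191.3 in E16.5 MM, with no overlap. Its log2 fold change of 0.38 (adjusted p = 6.6e-05) was under the size for a call. Me1, the malic enzyme that supplies NADPH, the desaturase Scd1 and the elongase Elovl6 had log2 fold changes of 0.02, 0.08 and 0.13, with adjusted p-values of 0.953, 0.677 and 0.424. Acacb, the mitochondrial carboxylase, averaged 178.1 ± 34.28 in FP and 123.8 ± 10.6 in E16.5 MM (0.53 ± 0.148, adjusted p = 0.0069). Its pools did not overlap, but the change was under the size for a call.

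Scd2, a stearoyl-CoA desaturase (chr19:44293674-44306864), was the most abundant member of this step per kilobase of exon in every tissue and was slightly lower in the fat pad precursor. It had 12340, 14060, 14170, 12890 and 15190 normalized counts in FP, against 16160, 16470, 15980, 16210 and 16490 in E16.5 MM. The pools did not overlap, and the log2 fold change of -0.24 ± 0.0687 (adjusted p = 0.00681) was not a call. The exception of this step was Thrsp, whose product is a positive regulator of lipogenesis in liver and fat (chr7:97412938-97417730). It had 329.1, 67.47, 42.99, 112 and 19.04 in FP, against 8.032, 14.39, 12.03, 5.784 and 1.008 in E16.5 MM. Thrsp was 13.8-fold higher in FP (3.79 ± 0.768, adjusted p = 0.000356), and 7.32-fold higher without FP replicate 1. Elovl3, an elongase of very long chains, averaged 6.497 ± 4.811 in FP and 3.016 ± 1.371 in E16.5 MM and was not tested, and it shares exon sequence on the opposite strand with Pitx3, which had 562 counts beside its 54.

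In triglyceride synthesis the genes of glycerol 3-phosphate supply, Gpd1 and Pck1, were called higher, as were Agpat2, Lpin1 and Dgat2. Gpam and Dgat1 were not called. Gpd1, the cytosolic enzyme that makes glycerol 3-phosphate from dihydroxyacetone phosphate (chr15:99717515-99725005), had 7724, 1672, 1279, 4014 and 650.4 normalized counts in FP, against 81.47, 51.57, 66.14, 85.6 and 25.19 in E16.5 MM. Every fat pad pool lay far above every mammary mesenchyme pool, and Gpd1 was 49.7-fold higher (5.64 ± 0.547, adjusted p = 4.48e-08), or 30.8-fold higher without FP replicate 1. Pck1, which feeds glycerol 3-phosphate through glyceroneogenesis (chr2:173153048-173159273), had 225.7, 23.81, 22.84, 115.1 and 23.27 in FP, against 12.62, 2.399, 9.621, 11.57 and 4.031 in E16.5 MM. Here 2 of the fat pad pools were high and 3 lay close above the mammary mesenchyme. Pck1 was 10.1-fold higher (3.34 ± 0.742, adjusted p = 0.000872), and without FP replicate 1 it was 5.7-fold higher and lost the call, since its mean then fell under 50.

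Of the acyl transfer enzymes, Gpam, which adds the first acyl chain (chr19:55067268-55127238), had 1384, 1377, 1393, 1234 and 1434 in FP, against 1559, 1476, 1382, 1365 and 1788 in E16.5 MM (-0.15 ± 0.0772, adjusted p = 0.143). The pools of both tissues overlapped. Agpat2, which adds the second chain, averaged 552.5 ± 118.1 in FP and 367 ± 14.05 in E16.5 MM (0.59 ± 0.144, adjusted p = 0.00212). It sat at the size threshold with overlapping pools, and it lost the call without FP replicate 1 (0.54), 3 (0.53) or 4 (0.53) or without E16.5 MM replicate 2 (0.57), 3 (0.58) or 4 (0.56), and with DESeq2's test, with its size factors or with no expression filter. Agpat2 also shares exon sequence on the opposite strand with Egfl7, an endothelial gene with 55617 counts in all pools beside 8442 for Agpat2, and no source used here says whether the counting used strand. Lpin1, the phosphatidate phosphatase, averaged 642.6 ± 65.77 in FP and 384 ± 41.79 in E16.5 MM, a 1.67-fold rise (adjusted p = 3.27e-06). The last step is shared by a pair of unrelated acyltransferases. Dgat2 was 3.38-fold higher in FP, at 378.4 ± 156.2 against 111.5 ± 43.06 in E16.5 MM (adjusted p = 1.44e-06), while Dgat1 averaged 482.2 ± 107 in FP and 386.6 ± 43.27 in E16.5 MM (0.32 ± 0.121, adjusted p = 0.0431) and was not called.

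The droplet coat had the highest median change of any step, 3.13 on the log2 scale over its 5 members. Cidec, which enlarges lipid droplets by fusing them (chr6:113424634-113435760), had 611.4, 116.1, 75.23, 323.5 and 31.73 normalized counts in FP, against 2.295, 7.196, 2.405, 8.097 and 1.008 in E16.5 MM. Its lowest fat pad pool lay above its highest mammary mesenchyme pool, and the fold was 54.4 (5.77 ± 0.761, adjusted p = 5.35e-06), or 32.1 without FP replicate 1. Plin1, the perilipin of the adipocyte droplet (chr7:79720218-79732903), had 1855, 631.1, 904.1, 1278 and 562.6 in FP, against 157.2, 88.75, 72.16, 124.9 and 41.32 in E16.5 MM, and was 10.8-fold higher (3.44 ± 0.387, adjusted p = 2.45e-07). Plin4, another perilipin, averaged 366.2 ± 234.2 in FP and 44.23 ± 11.12 in E16.5 MM (3.05 ± 0.441, adjusted p = 6.18e-06), and it shares exon sequence on the opposite strand with Hdgfl2, which had 37831 counts beside its 1878. Cidea, a relative of Cidec, averaged 54.15 ± 38.3 in FP and 6.021 ± 3.037 in E16.5 MM. It was called (3.13 ± 0.593, adjusted p = 0.000159), but fat pad replicate 5, at 7.403, lay within the mammary mesenchyme range of 1.203 to 9.07, and without FP replicate 1 the call was lost because the mean fell under 50. Cidea was also left out by the expression filter when the compared tissues were fitted alone. Plin2, the perilipin found on droplets of most cell types, differed least, at 2868 ± 250.5 in FP and 2257 ± 122.4 in E16.5 MM (0.35 ± 0.0742, adjusted p = 0.000611), and was not called.

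All 3 lipases were higher in the fat pad precursor. Pnpla2, which takes off the first acyl chain (chr7:141455198-141460743), had 371.3, 209.4, 159.9, 218.8 and 115.3 normalized counts in FP, against 82.62, 62.36, 80.57, 109.9 and 87.67 in E16.5 MM (1.34 ± 0.247, adjusted p = 0.000113). Lipe, the hormone-sensitive lipase (chr7:25379527-25398710), had 1961, 752.1, 565.6, 1251 and 430.4 in FP, against 168.7, 182.3, 170.8, 223.2 and 102.8 in E16.5 MM (2.55 ± 0.294, adjusted p = 3.02e-07). Mgll, which frees the last chain, averaged 1168 ± 68.46 in FP and 593.6 ± 55.03 in E16.5 MM (0.98 ± 0.0901, adjusted p = 4.01e-09). None of the 3 overlapped between tissues, and Pnpla2 came closest, with 115.3 in its lowest fat pad pool and 109.9 in its highest mammary mesenchyme pool.

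Among the adipokines, Adipoq, which encodes adiponectin (chr16:23146536-23158028), had 5206, 1603, 1544, 2808 and 965.5 normalized counts in FP, against 74.58, 115.1, 54.12, 108.7 and 18.14 in E16.5 MM. It was 32.9-fold higher in FP (5.04 ± 0.474, adjusted p = 1.72e-07). Across all E13.5 pools Adipoq was nearly silent. It had 1 count in E13.5 MM, 2 counts in VM and 0 in the 5 pools of SM, where 3 counts over the 5 libraries, the limit that a count of 0 allows, would be a mean of 0.565. Retn, which encodes resistin (chr8:3655770-3660110), had 147.9, 49.61, 47.02, 120.3 and 30.67 in FP, against 13.77, 15.59, 14.43, 2.313 and 0 in E16.5 MM (3.10 ± 0.718, adjusted p = 0.00131). Cfd, the serine protease adipsin, averaged 35.3 ± 38.42 in FP and 4.915 ± 4.718 in E16.5 MM with overlapping pools and was not tested. Lep, leptin, was low in both, at 16.67 ± 7.312 in FP and 11.98 ± 7.381 in E16.5 MM (adjusted p = 0.658).

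The thermogenic genes did not move together. Ucp1, the uncoupling protein of brown fat, averaged between 1.121 and 2.528 normalized counts in all 5 tissues, so that a difference was not detectable at this depth. Dio2, which makes active thyroid hormone (chr12:90724552-90738438), was the 1 member called lower, with 81.15, 90.3, 55.08, 100.6 and 92 in FP, against 471.6, 587.6, 375.2, 311.2 and 537.1 in E16.5 MM (-2.44 ± 0.214, adjusted p = 1.59e-09). Ppargc1a, a coactivator of mitochondrial genes (chr5:51454250-51567726), had 415.8, 276.8, 115.5, 210.5 and 56.05 in FP, against 60.82, 51.57, 49.31, 76.34 and 20.15 in E16.5 MM (2.06 ± 0.357, adjusted p = 6.15e-05). Fat pad replicate 5 lay within the mammary mesenchyme range for Ppargc1a, and the other 4 lay above it.

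The remaining adipocyte proteins were all higher in the fat pad precursor. Car3, a carbonic anhydrase abundant in fat and in muscle (chr3:14863512-14872523), had 69240, 26380, 33670, 45810 and 19840 normalized counts in FP, against 3407, 4020, 2250, 3969 and 904.9 in E16.5 MM, and was 13.4-fold higher (3.74 ± 0.414, adjusted p = 3.03e-07). Aoc3, an amine oxidase of the cell surface of adipocytes and vascular smooth muscle (chr11:101330605-101341938), had 2099, 2767, 2218, 1675 and 2309 in FP, against 1108, 835.9, 969.3, 755.3 and 808.2 in E16.5 MM (1.31 ± 0.146, adjusted p = 1.11e-07). Unlike Adipoq, Retn, Cidec and Plin1, Aoc3 was not highest in fat pad replicate 1 or lowest in replicate 5. Slc2a4, the insulin-responsive glucose transporter, averaged 518.5 ± 99.93 in FP and 230.3 ± 15.51 in E16.5 MM (1.17 ± 0.116, adjusted p = 1.31e-08). Adipor2, an adiponectin receptor, averaged 3985 ± 1023 in FP and 2018 ± 81.14 in E16.5 MM (0.98 ± 0.105, adjusted p = 5e-08).

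**Figure D2:**
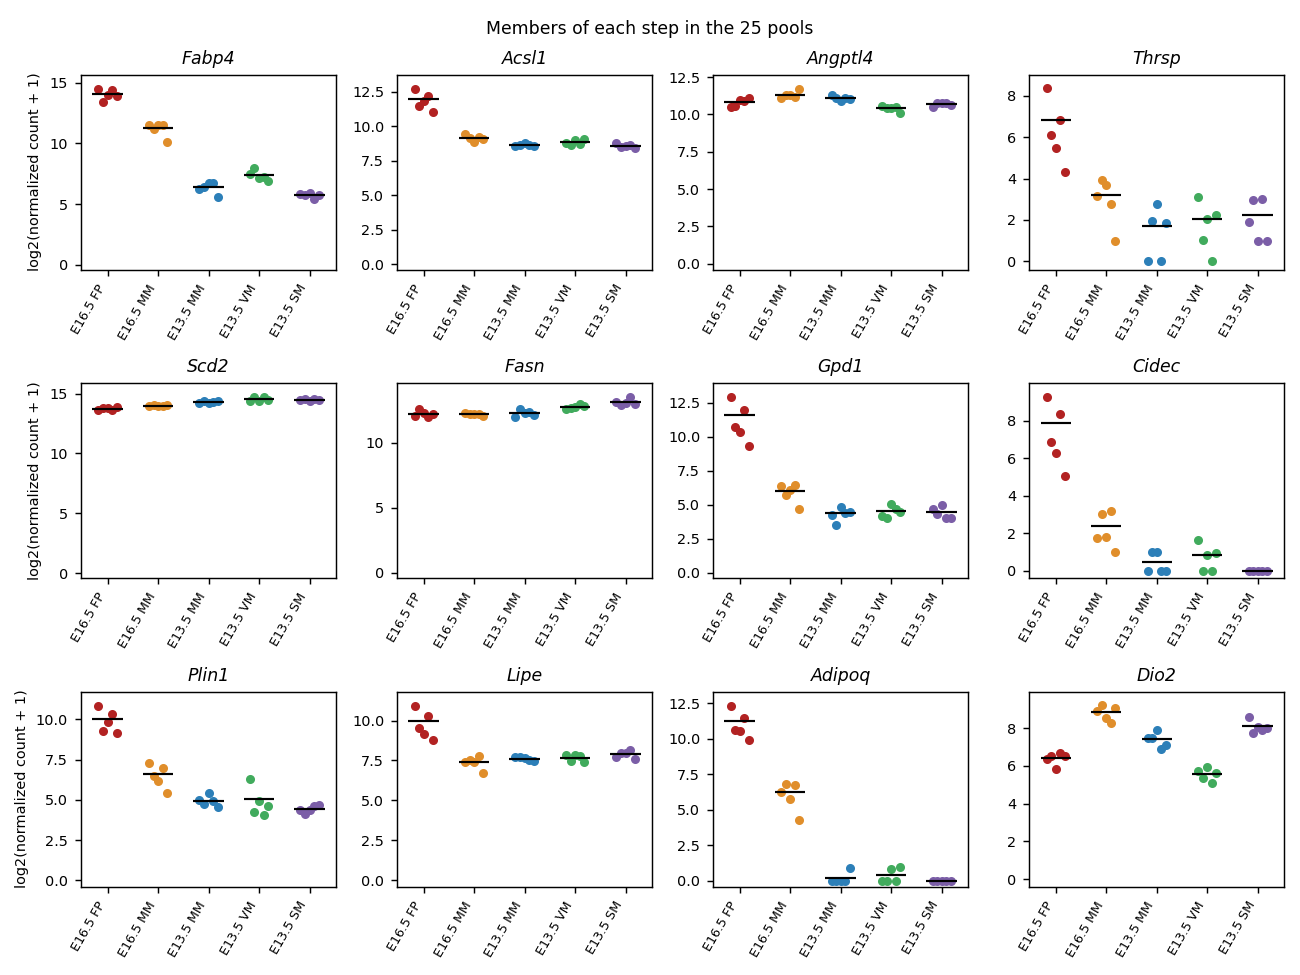
Levels of 12 members in the 25 pools, as log2(normalized count + 1), with a dot per pool and a bar at the mean of each tissue. Fabp4, Acsl1, Thrsp, Gpd1, Cidec, Plin1, Lipe and Adipoq are highest in all FP pools. On this scale Thrsp, Cidec and Gpd1 spread most widely there. Scd2 and Fasn vary little and lie highest at E13.5, and Dio2 is highest in E16.5 MM.

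Genes of the same pathways that are no members were read beside them as lists. Of 16 adipogenic regulators 8 were called higher in FP and 0 lower, with a median of 0.66. Klf15 averaged 231.5 in FP and 38.51 in E16.5 MM, Ebf2 3948 in FP and 660.5 in E16.5 MM, Mlxipl 99.69 in FP and 21.17 in E16.5 MM, and Cebpa 2231 in FP and 558.4 in E16.5 MM. All 4 encode transcription factors, and Cebpa is a master regulator of fat cell differentiation. Of 19 other tested droplet and triglyceride genes 9 were called higher and 0 lower, with a median of 0.43. They were led by Gpat3 (3.56), which adds the first acyl chain as Gpam does, and G0s2 (3.05), an inhibitor of the lipase that Pnpla2 encodes, followed by Fitm1 (2.41) and Cavin2 (1.40). Mitochondrial fatty acid oxidation had 10 of 17 higher and 0 lower, among them Cpt1b (2.46), the muscle form of the transferase that brings fatty acids into mitochondria, and the oxidation enzymes Hadh (1.10), Acadl (1.10) and Eci1 (0.95). The list of other uptake, activation and desaturation genes had 3 of 22 higher, which were Fabp3 (2.24), Vldlr (0.82) and Fads2 (0.60), and 1 lower, Fabp7 (-1.23). Cholesterol synthesis had 0 of 18 called in either direction.

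**Figure D3:**
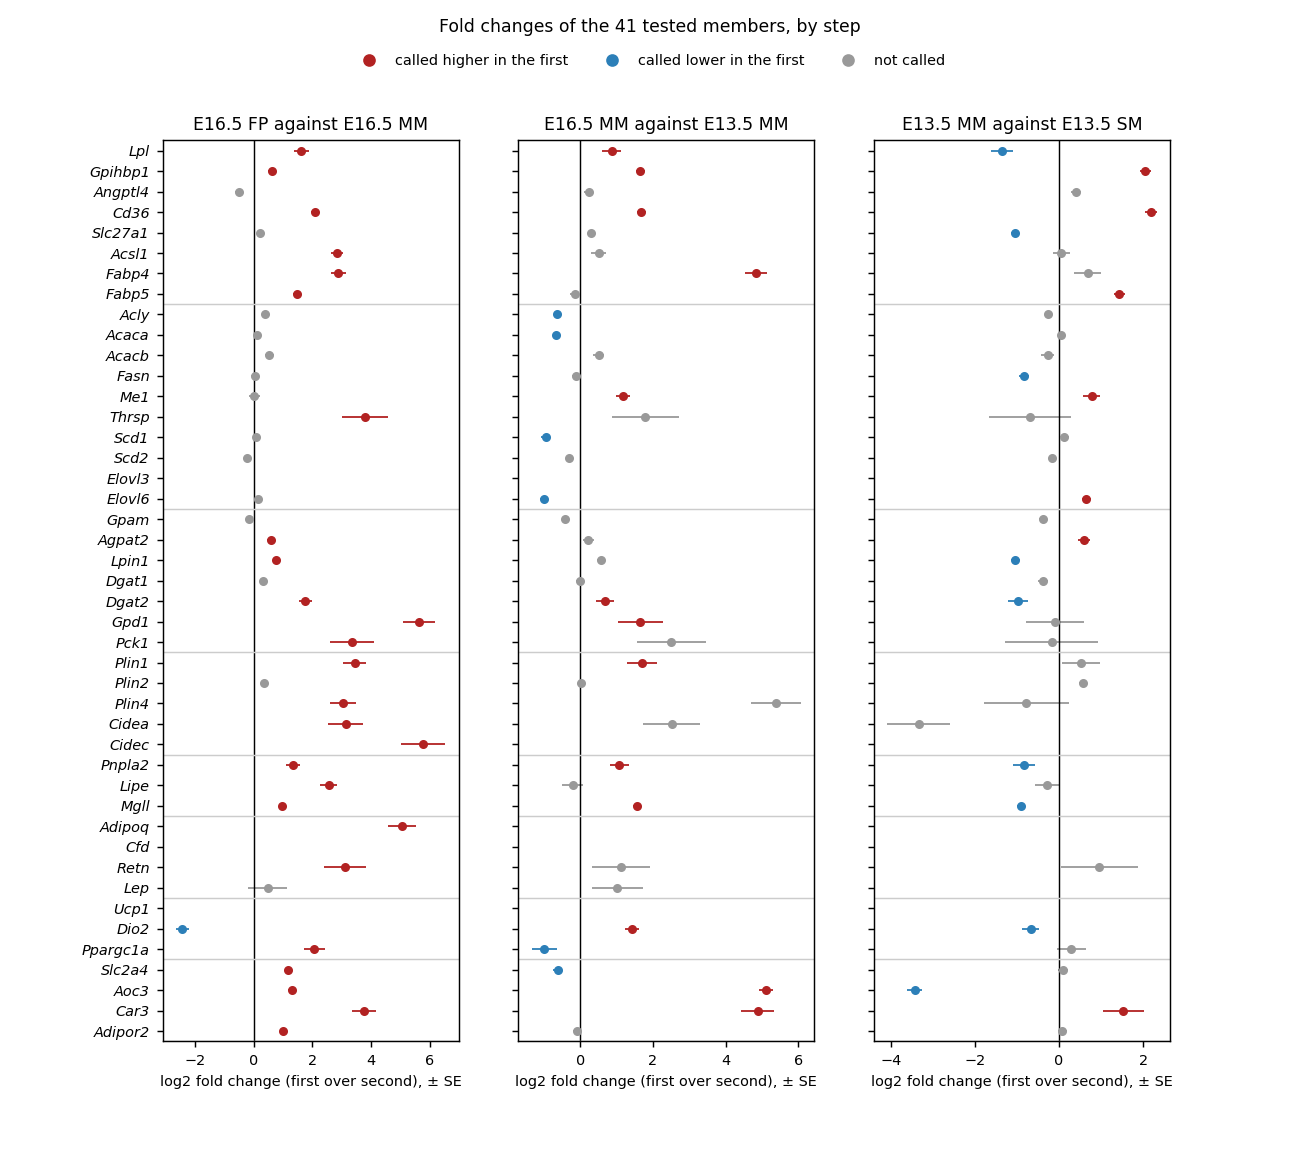
Log2 fold changes with standard errors of the members (rows, by step) in 3 comparisons, red where called higher in the first tissue, blue where called lower and grey where not called. Elovl3, Cfd and Ucp1 were not tested, and genes with 3 counts or fewer in a tissue of the comparison are left blank. In the panel of FP against E16.5 MM every step has a red point, but in fatty acid synthesis only Thrsp is called. In the other steps Dio2 is blue, and Angptl4, Slc27a1, Gpam, Dgat1, Plin2 and Lep are grey.

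Fat pad pools differed from each other, and the members moved together across them. Of the 26 members called higher, FP replicate 1 had the highest value for 21 and FP replicate 5 the lowest for 17. The E16.5 MM pools were ordered in part as well, with replicate 1 highest for 10 of the same 26 and replicate 5 lowest for 15. Summed over all 44 members, FP replicates 1 to 5 had 7969, 4650, 5467, 6463 and 4696 CPM, against 2104 to 2490 in E16.5 MM. CPM are counts scaled by each library's total and its TMM factor. The sum over fatty acid synthesis, 1085 to 1254 in FP against 1150 to 1214 in E16.5 MM, showed no such order. Markers of other cells differed between the 2 tissues as well. All 14 skeletal muscle markers were called higher in FP, and their sum was 15560, 22890, 14240, 13680 and 2333 CPM in FP replicates 1 to 5, against 3179, 3740, 989.9, 1460 and 850.1 in E16.5 MM. None of these 14 was at 0 in any E16.5 pool. Muscle also expresses some of the members, among them Car3, Slc2a4, Cd36, Acacb and Ppargc1a. In fat pad replicate 5 the muscle sum lay within the mammary mesenchyme range. There Car3 was at 19840, Slc2a4 at 375.4, Cd36 at 16170 and Acacb at 140.6, where the highest E16.5 MM pools had 4020, 255.4, 4501 and 137.1. Ppargc1a, at 56.05, was within the mammary mesenchyme range. Replicate 5 was the lowest fat pad pool for Car3, Slc2a4, Acacb and Ppargc1a, but not for Cd36. Adipoq, which is not in this muscle group, was lowest in replicate 5 too, at 965.5, against at most 115.1 in E16.5 MM. The part of muscle in these differences was not tested.

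Capillary endothelium and macrophages also express several members, Gpihbp1, Cd36 and Fabp4 in endothelium and Fabp4, Cd36, Lpl and Plin2 in macrophages. Of 12 endothelial markers 1 was called higher and 0 lower in FP, and their sum was 1209 to 1480 CPM in FP against 989.3 to 1199 in E16.5 MM. Of 12 macrophage markers 0 were called, and their sum was 720.8 to 889.1 CPM in FP against 650.4 to 758.7 in E16.5 MM. Neither list had a marker at 0 in an E16.5 pool. Epithelial markers were lower in the fat pad precursor, 6 of 11, with sums of 10.6 to 77.94 CPM in FP against 20.89 to 142.3 in E16.5 MM. The 77.94 was FP replicate 1, and the other fat pad pools had 10.6 to 15.36. Of the mesenchymal markers 9 of 11 were lower, with sums of 24080 to 28410 CPM in FP against 43950 to 49290 in E16.5 MM. The part of these cells in the members' differences was not tested.

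**Figure D4:**
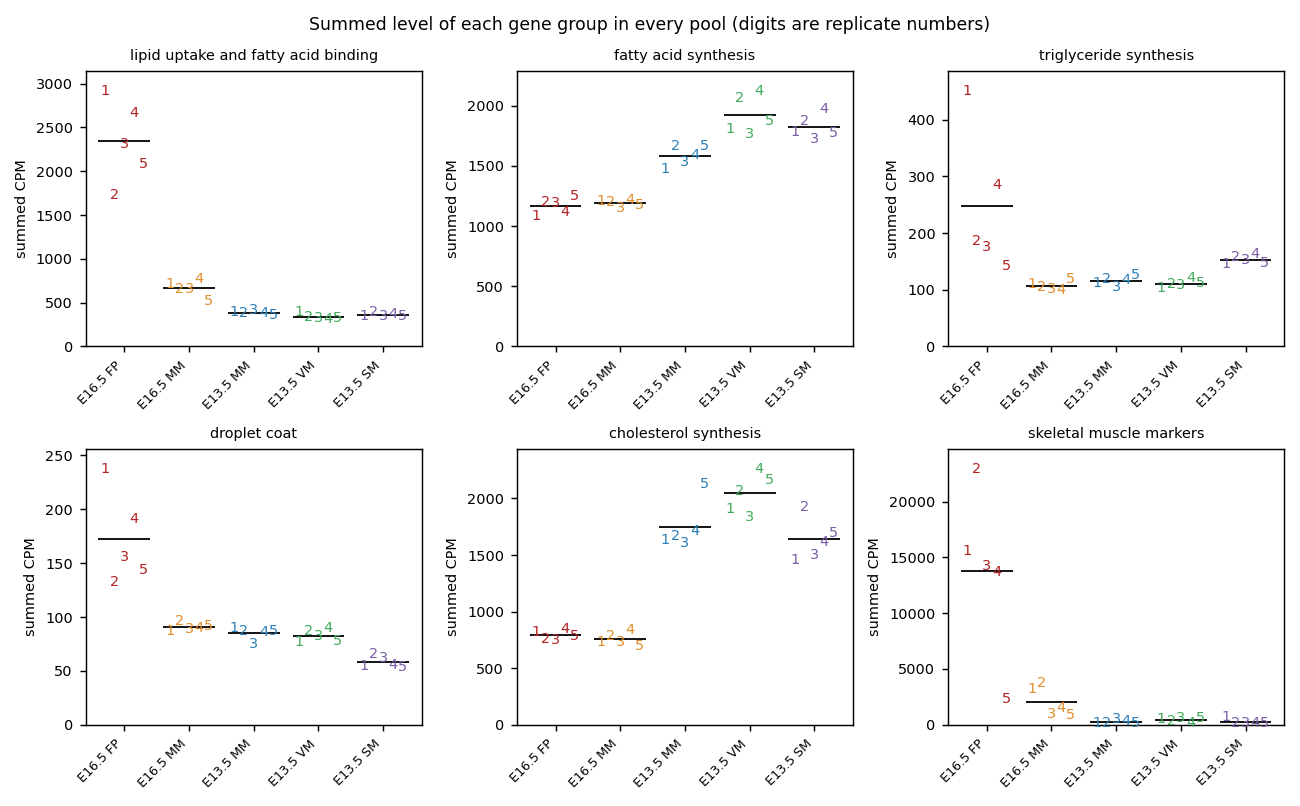
Summed CPM of 4 steps, of cholesterol synthesis and of skeletal muscle markers in every pool, with the digit giving the replicate number and the bar the mean. Uptake, triglyceride and droplet coat sums are highest in FP with replicate 1 on top, fatty acid synthesis and cholesterol synthesis are highest at E13.5, and the muscle sum of FP replicate 5 lies with the E16.5 MM pools.

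The second question was what changed in the mammary mesenchyme with stage. In E16.5 MM against E13.5 MM 14 members were called higher and 6 lower, where 12.6% of all tested genes were called higher and 7.16% lower, and the median log2 fold change of the members was 0.68, beside 0.014 over all tested genes. The calls included Aoc3, Car3 and Fabp4 with large differences in normalized count. Aoc3 had 1108, 835.9, 969.3, 755.3 and 808.2 in E16.5 MM, against 30.53, 22.97, 37.09, 20.37 and 19.45 in E13.5 MM (5.11 ± 0.189, adjusted p = 3.92e-16). Car3 had 3407, 4020, 2250, 3969 and 904.9 in E16.5 MM, against 85.95, 67, 167.9, 83.06 and 87.51 in E13.5 MM (4.89 ± 0.455, adjusted p = 1.65e-08). Fabp4 had 2923, 2298, 2844, 2870 and 1081 in E16.5 MM, against 73.51, 84.22, 108.3, 102.6 and 47.73 in E13.5 MM (4.85 ± 0.297, adjusted p = 1.47e-11). No pool overlapped in these 3 genes. Adipoq, at 18.14 to 115.1 in E16.5 MM, had 1 count in E13.5 MM, a ratio of 398 with a 95% Poisson interval of 71.4 to 15700 that covers counting error only.

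Of the other uptake genes, Cd36 (1.68), Gpihbp1 (1.66) and Lpl (0.87 ± 0.263, adjusted p = 0.00933) were called, the last with overlapping pools, while Fabp5 (-0.15, adjusted p = 0.342), Angptl4 (0.24, adjusted p = 0.105), Slc27a1 (0.30) and Acsl1 (0.51) were not. Mgll (1.55 ± 0.0936, adjusted p = 1.89e-12), Pnpla2 (2.12-fold) and Plin1 (1.70 ± 0.411, adjusted p = 0.00162) were also called higher, and Lipe was not (-0.21, adjusted p = 0.575). Plin2 was level, at 2257 ± 122.4 in E16.5 MM, against 2226 ± 159.7 in E13.5 MM (0.02 ± 0.0741, adjusted p = 0.843). Gpd1 (1.65 ± 0.621, adjusted p = 0.0328) and Dgat2 (0.68 ± 0.237, adjusted p = 0.0199) passed narrowly. Gpd1 lost the call in 7 of the 10 fits that left out 1 pool of either tissue, which were those without E16.5 MM replicate 1, 3 or 4 or E13.5 MM replicate 1, 2, 4 or 5, with adjusted p-values of 0.0543 to 0.0755. Dgat2 lost it without E16.5 MM replicate 5 (0.44, adjusted p = 0.117) or E13.5 MM replicate 2 (0.63, adjusted p = 0.0523). Plin4 averaged 44.23 in E16.5 MM, against 0.9153 in E13.5 MM, with no overlap (5.39 ± 0.68, adjusted p = 5.68e-07), a larger log2 fold change than those of Aoc3, Car3 and Fabp4, but its mean was under 50 and it was not called. Cidea, Pck1, Cidec, Thrsp, Retn and Lep also had means under 50 in both tissues and could not be called.

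Fatty acid synthesis had more lower than higher calls with stage, 4 against 1. Elovl6 averaged 1633 ± 165.3 in E16.5 MM, against 3247 ± 344.2 in E13.5 MM (-0.99 ± 0.11, adjusted p = 6.27e-08), Scd1 averaged 594.4 ± 126 in E16.5 MM, against 1146 ± 68.14 in E13.5 MM (-0.95 ± 0.117, adjusted p = 3.52e-07), Acaca averaged 3470 ± 277.7 in E16.5 MM, against 5507 ± 338.3 in E13.5 MM (-0.67 ± 0.0623, adjusted p = 3.57e-09) and Acly averaged 4107 ± 191.3 in E16.5 MM, against 6436 ± 367.9 in E13.5 MM (-0.65 ± 0.0671, adjusted p = 2e-08). These 4 were called lower with no overlap. Fasn was not called (-0.11 ± 0.118, adjusted p = 0.441), and Me1 was called higher, at 642.8 ± 95.54 in E16.5 MM, against 283.7 ± 38.11 in E13.5 MM (1.18 ± 0.194, adjusted p = 2.12e-05). Scd2, below its E13.5 MM pools in every E16.5 MM pool, had a log2 fold change of -0.32. Slc2a4 (-0.62 ± 0.116, adjusted p = 9.2e-05) and Ppargc1a (-0.98 ± 0.354, adjusted p = 0.0248) were the other 2 lower calls, and Ppargc1a lost its call without E16.5 MM replicate 5 (-0.77, adjusted p = 0.0748) or E13.5 MM replicate 4 (-0.93, adjusted p = 0.054). Dio2 was called higher, at 456.5 ± 113.6 in E16.5 MM, against 170.3 ± 45.01 in E13.5 MM (1.42 ± 0.203, adjusted p = 2.8e-06).

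Cholesterol synthesis, the other branch that draws on cytosolic acetyl-CoA, fell with stage as a list. In E16.5 MM against E13.5 MM 0 of its 18 genes were called higher and 16 lower, with a median of -1.20. The summed level of the list was 751.7 to 850.7 CPM in FP, 696.7 to 834.1 in E16.5 MM and, at the earlier stage, 1609 to 2125 in E13.5 MM, 1836 to 2257 in VM and 1458 to 1927 in SM. The sum over fatty acid synthesis had the same division by stage, at 1085 to 1254 CPM in FP, 1150 to 1214 in E16.5 MM and, of the earlier tissues, 1477 to 1666 in E13.5 MM, 1766 to 2122 in VM and 1721 to 1977 in SM. No E16.5 pool reached the lowest E13.5 pool for either sum. Macrophage markers (12 of 12 higher), epithelial markers (10 of 11 higher), skeletal muscle markers (11 of 14 higher, 1 lower), erythroid markers (6 of 8 higher) and neuron markers (4 of 6 lower) moved with stage too. Their summed levels in E16.5 MM were 650.4 to 758.7 CPM for macrophages, against 370.5 to 421.6 in E13.5 MM, 20.89 to 142.3 for epithelium, against 7.725 to 19.94 in E13.5 MM, 850.1 to 3740 for muscle, against 138.6 to 478.3 in E13.5 MM, and 4499 to 6119 for erythroid cells, against 1844 to 2622 in E13.5 MM. Ckm was at 0 in 2 of the E13.5 MM pools. Mesenchymal markers (6 of 11 higher) and Schwann cell markers (4 of 6 lower) moved as well. The mesenchymal sum was 43950 to 49290 CPM in E16.5 MM, against 17200 to 21770 in E13.5 MM. The part of these cells in the members' changes was not tested.

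In FP against E13.5 MM, which shares its pools with both comparisons above, 27 members were called higher and 3 lower, where 14.3% of all tested genes were called higher and 11.2% lower, with a median of 1.501 for the members and 0.034 for all tested genes. Fabp4 was 211-fold higher (7.72 ± 0.331, adjusted p = 1.02e-14), Car3 397-fold (8.63 ± 0.527, adjusted p = 7.68e-12), Aoc3 85.5-fold (6.42 ± 0.195, adjusted p = 5.45e-18) and Plin1 35-fold (5.13 ± 0.429, adjusted p = 6.3e-10). For Adipoq, with 1 count in E13.5 MM, the ratio was 13000 with a Poisson interval of 2340 to 514000, and for Cidec, with 2 counts there, it was 621 with an interval of 172 to 5130. The 3 lower calls were Scd1 (-0.87 ± 0.117, adjusted p = 7.18e-07), Elovl6 (-0.87 ± 0.11, adjusted p = 2.73e-07) and Dio2 (-1.01 ± 0.21, adjusted p = 0.000221). Without FP replicate 1 the calls of Cidea, Pck1 and Ppargc1a (then 0.69, adjusted p = 0.0672) were lost, and the ratio for Cidec was 366. Markers of muscle (13 of 14), macrophages (12 of 12), endothelium (6 of 12) and erythroid cells (6 of 8) were called higher in FP and 4 of 6 neuron markers lower. The muscle sum was 2333 to 22890 CPM in FP against 138.6 to 478.3 in E13.5 MM, the macrophage sum 720.8 to 889.1 in FP against 370.5 to 421.6 in E13.5 MM, the endothelial sum 1209 to 1480 in FP against 806.6 to 991.6 in E13.5 MM, the erythroid sum 3937 to 7912 in FP against 1844 to 2622 in E13.5 MM and the neuron sum 6.654 to 9.641 in FP against 19.4 to 24.49 in E13.5 MM. Muscle expresses Car3 as well, and the part of these cells was not tested.

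At E13.5 few members differed between the mammary and ventral skin mesenchymes. In E13.5 MM against VM 3 members were called higher and 3 lower, 7.32% of the tested members each way. Of all tested genes 3.79% were called higher and 2.66% lower. The members' shares rest on 3 genes each way, too few to set them apart from the background. The median was -0.16 for the members, or -0.14 over 40 members with Adipoq left out for its 3 counts, and -0.009 for all tested genes. Dio2 had 178.7, 179, 236.2, 119.1 and 138.8 normalized counts in E13.5 MM, against 52.74, 40.52, 59.68, 33.29 and 47.91 in VM, and was 3.62-fold higher (1.86 ± 0.218, adjusted p = 6.1e-07). Angptl4 had 2560, 2172, 1910, 2172 and 2128 in E13.5 MM, against 1483, 1412, 1356, 1442 and 1114 in VM (0.69 ± 0.121, adjusted p = 0.000177). Both genes separated the 2 tissues in every pool, as they separated E16.5 MM from FP, where Dio2 was called and Angptl4 was not. Cd36 was 1.51-fold higher (0.59 ± 0.131, adjusted p = 0.00204) and lost the call without E13.5 MM replicate 1 (0.58) or 2 (0.56) or without VM replicate 1 (0.58) or 3 (0.58).

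The 3 members called lower in E13.5 MM than in VM were Scd1, Me1 and Fabp4. Scd1 had 1121, 1137, 1198, 1051 and 1224 in E13.5 MM, against 1967, 2229, 1549, 2063 and 1656 in VM (-0.72 ± 0.115, adjusted p = 4.91e-05). Me1 averaged 283.7 ± 38.11 in E13.5 MM and 495.2 ± 155.8 in VM (-0.80 ± 0.193, adjusted p = 0.00444). Fabp4 averaged 83.29 ± 24.31 in E13.5 MM and 166.4 ± 50.21 in VM (-0.99 ± 0.286, adjusted p = 0.0192), and its call was lost without E13.5 MM replicate 5 (adjusted p = 0.0592) or VM replicate 2 (adjusted p = 0.0642). All 3 kept their E13.5 MM pools below their VM pools. Of the 12 endothelial, 12 macrophage, 14 muscle and 8 erythroid markers 0 were called in this comparison, and 2 of 6 neuron markers were called higher in E13.5 MM.

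More members were called between mammary and salivary mesenchyme of E13.5 than between mammary and ventral skin mesenchyme, as were more of all tested genes. In E13.5 MM against SM 7 members were called higher and 9 lower, where 14.5% of all tested genes were called higher and 15.6% lower, so the shares of members were 17.1% and 22%. The median was 0.047 for the members, or -0.095 over 39 members with Lep at its lower bound and Cidec and Adipoq left out, and 0.032 for all tested genes. Within uptake the members split. Cd36 averaged 1204 ± 125.6 in E13.5 MM and 265.8 ± 40.67 in SM (2.18 ± 0.138, adjusted p = 9.57e-13), Gpihbp1 averaged 234.7 ± 39.64 in E13.5 MM and 56.55 ± 8.792 in SM (2.05 ± 0.137, adjusted p = 2.07e-12), and Fabp5 was 2.7-fold higher in E13.5 MM (adjusted p = 1.16e-09). Lpl had 1731, 1596, 3028, 1764 and 1569 in E13.5 MM, against 4559, 5377, 4581, 5346 and 4946 in SM (-1.36 ± 0.265, adjusted p = 0.000133), and Slc27a1 was lower as well (-1.06 ± 0.0945, adjusted p = 4.76e-10). The lipase and its endothelial anchor thus lay in opposite order in these tissues. Endothelial markers were higher in E13.5 MM for 8 of 12, with sums of 806.6 to 991.6 CPM in E13.5 MM against 521.8 to 597.8 in SM, and macrophage markers for 12 of 12, with 370.5 to 421.6 CPM in E13.5 MM against 80.26 to 110.3 in SM, and no marker of either list was at 0 in these pools. Erythroid markers were higher in E13.5 MM for 6 of 8, with 1844 to 2622 CPM in E13.5 MM against 664.6 to 1256 in SM, and neuron markers were lower for 6 of 6, with 19.4 to 24.49 CPM in E13.5 MM against 263.7 to 338.1 in SM. The part of these cells in the members' differences was not tested.

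Among the other members, Aoc3 was the farthest below the salivary level, with 30.53, 22.97, 37.09, 20.37 and 19.45 normalized counts in E13.5 MM, against 240.5, 278, 245.6, 351 and 288.4 in SM (-3.44 ± 0.185, adjusted p = 3.79e-14). Fasn had 4170, 6338, 5109, 5325 and 4579 in E13.5 MM, against 8903, 7898, 8470, 11760 and 8173 in SM (-0.83 ± 0.119, adjusted p = 1.48e-06). Neither gene overlapped between these tissues. Lpin1 (-1.04), Dgat2 (-0.97), Mgll (-0.92) and Pnpla2 (-0.84) were lower too, as was Dio2 (-0.68 ± 0.201, adjusted p = 0.00544), which lost the call without E13.5 MM replicate 4 (-0.57) or SM replicate 1 (-0.53). Car3 (1.53), Me1 (0.78), Elovl6 (0.65) and Agpat2 (0.58 ± 0.146) were higher in E13.5 MM, and Agpat2 lost the call without E13.5 MM replicate 3, 4 or 5 or SM replicate 1 or 4 (0.50 to 0.57). Lep had 32 counts over the E13.5 MM pools and 0 over the SM pools, at least 10.1-fold higher, with a mean of 5.73 that was under the level for a call.

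In FP against SM 28 members were called higher and 5 lower, where 20.2% of all tested genes were called higher and 19.3% lower, with a median of 1.59 for the members and 0.035 for all tested genes. Adipoq was at least 4290-fold and Cidec at least 410-fold higher, since both were at 0 in SM, and Cfd and Lep, under the level for a call or not tested, were at least 62.5-fold and 29.5-fold higher. Cd36 was 62.2-fold higher (5.96 ± 0.16, adjusted p = 7.42e-20) and Plin1 50.2-fold (5.65 ± 0.445, adjusted p = 1.11e-10). The 5 lower calls were Fasn (-0.90 ± 0.119, adjusted p = 2.79e-07), Scd1 (-0.76), Scd2 (-0.74 ± 0.069, adjusted p = 7.53e-10), Gpam (-0.97 ± 0.0774, adjusted p = 4.34e-11) and Dio2 (-1.69 ± 0.21, adjusted p = 1.11e-07). Fatty acid synthesis was evenly split, with 3 members lower (Fasn, Scd1 and Scd2) and 3 higher, which were Acacb (0.76 ± 0.148), Me1 (1.98 ± 0.2) and Thrsp (4.89 ± 0.822). Without FP replicate 1 the calls of Cidea, Pck1 and Slc2a4 were lost, and the bounds for Cidec and Cfd fell to 242-fold and 35.8-fold. All 12 endothelial, all 14 muscle, all 12 macrophage and 7 of 8 erythroid markers were called higher in FP and all 6 neuron markers lower. Their sums were 1209 to 1480 CPM in FP against 521.8 to 597.8 in SM for endothelium, 2333 to 22890 in FP against 119.8 to 693.9 in SM for muscle, 720.8 to 889.1 in FP against 80.26 to 110.3 in SM for macrophages, 3937 to 7912 in FP against 664.6 to 1256 in SM for erythroid cells and 6.654 to 9.641 in FP against 263.7 to 338.1 in SM for neurons. Their part in these differences was not tested.

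By mean level FP was the highest tissue for 33 of the 44 members. This ranking takes no account of spread. It includes Ucp1, Elovl3 and Cfd, which were not tested, and members such as Me1 and Lep that were not called against E16.5 MM. The 11 exceptions were Angptl4 and Dio2, highest in E16.5 MM, Slc27a1, Acly, Fasn, Gpam and Dgat1, highest in SM, and Acaca, Scd1, Scd2 and Elovl6, highest in VM. Compared between genes per kilobase of exon, the leading member in FP was Car3, at 13610 normalized counts per kilobase, followed by Cd36 (4608), Fabp4 (3921), Fabp5 (2709), Scd2 (2513) and Adipoq (1756). In the other 4 tissues Scd2 led, at 2976 per kilobase in E16.5 MM and, at E13.5, at 3707 in MM, 4354 in VM and 4188 in SM. Second stood Cd36 in E16.5 MM (1078) and Acly in E13.5 MM (1219), VM (1451) and SM (1471).

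The bases before the start of 4 members are shown so that genes that moved apart can be set side by side, an adipokine and a droplet gene at which the fat pad precursor stood highest, Adipoq and Cidec, and the synthesis genes Acly and Fasn, at which it did not. Each line gives the 250 bases upstream of the RefSeq start that is also the start of the annotated gene (GRCm38.p6), 5′ to 3′ on the gene's strand, with capitals marking CCAAT or, on the other strand, ATTGG. They lie at chr16:23146286-23146535 (plus strand) for Adipoq, chr6:113435761-113436010 (minus strand) for Cidec, chr11:100528001-100528250 (minus strand) for Acly and chr11:120824548-120824797 (minus strand) for Fasn.
Adipoq: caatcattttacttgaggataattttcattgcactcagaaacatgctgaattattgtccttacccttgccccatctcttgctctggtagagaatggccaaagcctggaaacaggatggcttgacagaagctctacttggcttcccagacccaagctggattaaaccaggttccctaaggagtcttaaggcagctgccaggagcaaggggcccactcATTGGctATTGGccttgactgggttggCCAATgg
Cidec: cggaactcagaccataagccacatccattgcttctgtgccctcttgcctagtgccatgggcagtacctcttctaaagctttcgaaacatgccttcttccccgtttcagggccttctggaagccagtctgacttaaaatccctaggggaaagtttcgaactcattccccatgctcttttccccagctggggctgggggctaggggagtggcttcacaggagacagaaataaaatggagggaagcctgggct
Acly: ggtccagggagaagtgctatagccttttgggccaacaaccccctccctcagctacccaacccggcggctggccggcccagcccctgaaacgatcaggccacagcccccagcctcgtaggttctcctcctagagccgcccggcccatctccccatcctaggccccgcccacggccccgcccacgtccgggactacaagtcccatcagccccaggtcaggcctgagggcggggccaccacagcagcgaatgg
Fasn: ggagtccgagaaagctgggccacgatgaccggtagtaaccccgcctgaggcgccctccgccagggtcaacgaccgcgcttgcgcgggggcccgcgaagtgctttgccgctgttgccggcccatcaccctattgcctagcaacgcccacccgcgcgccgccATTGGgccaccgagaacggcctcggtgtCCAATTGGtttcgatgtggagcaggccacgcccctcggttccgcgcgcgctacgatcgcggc
In Adipoq the motif starts 34, 27 and 7 bases before the gene's start, and in Fasn it starts 90, 62 and 59 bases before it, where the last pair of matches overlap as CCAATTGG. The Cidec and Acly windows hold none. CCAAT was in 11 of the 29 members with a RefSeq promoter (37.9%) and in 37.5% of 27025 genes, so the members' share was near the background. It was in 4 of 7 fatty acid synthesis members, Acacb, Fasn, Me1 and Thrsp, and in 12 of the 12 cholesterol synthesis genes matched. Of the 5 other motifs searched on both strands, TTGCNNAA was in 13.8% of members and 10.8% of genes, CACGTG in 10.3% of members and 6.86% of genes, TATAAA in 6.9% of members and 14.3% of genes, TCACNCCAC in 3.45% of members and 1.22% of genes, and AGGTCANAGGTCA in 0 members and 0.0407% of genes. The promoters and motifs were chosen after the members' values were seen, and a match of letters is a description of these windows.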

How the data were processed

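Mouse embryonic mesenchyme was profiled by RNA-Seq in 25 pools. Per the labels and the study's methods, RNA was extracted with TRI Reagent and Direct-zol, libraries were made with Ovation SoLo and sequenced on a NextSeq 500. FastQC 0.11.8, MultiQC 1.9, Trimmomatic 0.39 and SortMeRNA were applied, and Salmon 0.99.0 estimated transcript abundance with mm10. The deposited values are estimated counts per gene, which the authors gave as whole numbers with no normalization. Salmon divides reads shared by close copies such as Scd1 and Scd2 or Fabp4 and Fabp5. The annotation release and the use of strand are not given in the sources used here. Symbols came from GENCODE M21, which lacked 375 of the 35880 identifiers (0.0805% of counts).

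Counts were tested with edgeR 4.0.16 (R 4.3.3, limma 3.58.1) by the quasi-likelihood test, with filterByExpr, TMM factors, 1 mean per tissue and all 25 pools in 1 fit, which left 20 residual degrees of freedom (common dispersion 0.0433). The 6 comparisons share some pools. The p-values were adjusted by Benjamini-Hochberg over 17657 genes. The limits for a call were 0.05 for the adjusted p, 0.58 for the size of the log2 fold change and 50 for the mean of the higher tissue. Normalized counts are counts times the mean effective library size over the pool's own. Standard errors are the log2 fold change over the square root of F. No fitted fold is printed where a tissue had 3 counts or fewer, and ratios there have Poisson intervals or a floor of 3 counts that cover counting error only. All 44 members are named, with values per pool for the leading genes of each step. From the other lists up to 4 called genes with the largest change were named. The fit was tested on simulated data. DESeq2 1.42.0 and its size factors, no filter, fits of the compared tissues alone, a stricter level, a replicate term and leaving out each pool were the alternatives. Promoters were from RefSeq (GRCm38.p6), with 29 of 44 members matched. Figures were drawn with matplotlib 3.10.9 in Python 3.11.15. The members and lists were chosen with earlier results of these data known.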

Additional observations from a re-analysis of the deposited data

Results flagged for a closer look

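Of 162 groups of 5 pools, 11 had 1 pool whose distance to the nearest other exceeded 0.71 of the whole range, the 95% critical value of Dixon's test, which chance gives in about 1 in 20 groups. In FP, Plin4 was highest in replicate 1, at 777.1 normalized counts beside 200.9 to 330.8 in the others, and Gpam was lowest in replicate 4, at 1234 beside 1377 to 1434. In E16.5 MM, replicate 5 stood apart for 3 genes. It was highest for Angptl4, at 3413 beside 2184 to 2534, highest for Agpat2, at 392.0 beside 359.6 to 362.6, and lowest for Fasn, at 4190 beside 4785 to 4977. Elovl6 was highest in E16.5 MM replicate 4, at 1926 beside 1532 to 1587. In E13.5 MM, replicate 3 stood apart for 3 genes. It was highest for Lpl, at 3028 beside 1569 to 1764, highest for Car3, at 167.9 beside 67.0 to 87.51, and lowest for Plin2, at 1950 beside 2247 to 2360. In SM, Acly was highest in replicate 2, at 9019 beside 7350 to 7553, and Fasn was highest in replicate 4, at 11760 beside 7898 to 8903.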

How the results depend on the processing

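For FP against E16.5 MM, E16.5 MM against E13.5 MM, FP against E13.5 MM, E13.5 MM against VM, E13.5 MM against SM and FP against SM, in that order, 27, 20, 30, 6, 16 and 33 members were called. DESeq2's Wald test gave 26, 21, 30, 6, 17 and 33, its size factors 26, 21, 30, 6, 16 and 33, no expression filter 26, 19, 33, 5, 16 and 35, the compared tissues alone 26, 21, 28, 7, 18 and 33, and a mean over both tissues above 50 gave 24, 18, 27, 6, 16 and 30. Leaving out 1 pool gave 24 to 28, 18 to 21, 28 to 33, 5 to 6, 14 to 17 and 30 to 34. With a replicate block the counts were 27, 20, 30, 6, 17 and 33, no call was lost and Fabp4 was gained in E13.5 MM against SM. The numbers do not pair the pools, since deviations of same-numbered pools correlated at -0.247 to 0.289 between tissues. Of 132 called log2 fold changes 0 changed sign wherever an alternative gave a value. With the compared tissues alone all but 2 had one, since Cidea did not pass the filter in FP against E16.5 MM or in FP against E13.5 MM and lost both calls. The calls of Gpd1 in E16.5 MM against E13.5 MM and of Fabp4 in E13.5 MM against VM were lost with no expression filter, that of Ppargc1a in FP against E13.5 MM with the compared tissues alone, and the causes were not tested. Low members limit the reading, since Ucp1, Elovl3 and Cfd were not tested and genes with means under 50 could not be called.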
